A study of Caenorhabditis elegans with 2 samples.

Results

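The chaperone and chaperonin genes of Caenorhabditis elegans were taken as the protein-coding genes whose symbols begin with hsp-, dnj-, cct- or pfd-. The rule gave 65 of 19973 nuclear protein-coding genes in the Ensembl annotation, with 22 hsp-, 29 dnj-, 8 cct- and 6 pfd- genes. They were examined for regions of RNT-1, the RUNX transcription factor of the worm, in chromatin immunoprecipitation with sequencing (ChIP-seq). The series holds 2 biological replicates of 1 group, with no second condition. The animals were hermaphrodite late embryos of strain OP462, genotype unc-119(tm4063) III; wgIs462, collected 5 h after synchronization by egg bleaching. The wgIs462 transgene supplies RNT-1 with GFP and FLAG at its C terminus, and the chromatin was pulled down through GFP. The labels do not name the promoter of the transgene or the cells that carried the tagged protein. Whole embryos were used, so a region can come from any cell type, and a strong region in few cells and a weak one in many cannot be told apart.

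Chaperones bind unfolded or newly made proteins and help them to fold. HSP70 proteins work in cycles of ATP binding and release, with J proteins (dnj- genes) that deliver clients and stimulate the ATPase, and with exchange factors such as HSP110. Prefoldin passes new actin and tubulin chains to the ring-shaped chaperonin CCT, while the mitochondrion and the endoplasmic reticulum (ER) hold HSP70 proteins of their own. Some of these genes are active in most growing cells, whereas hsp-70 and the hsp-16 genes are known for low activity until heat or another stress acts through the heat shock factor HSF-1. RUNX proteins are known to bind a short core, TGCGGT or TGTGGT, and RNT-1 is known for its part in the divisions of epidermal seam cells.

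The sequences below are shown because the results turn on which words lie under the summits. Each is centred on the summit of a peak that passed the authors' threshold on the irreproducible discovery rate (IDR), with 50 bases on either side, read 5′ to 3′ on the strand of the chaperone gene. They come from the RefSeq assembly WBcel235, which is ce11. Capitals mark the RUNX core on either strand and the inverted pair of the heat shock unit, GAANNTTC or TTCNNGAA. The first set has the strongest peak of each class with a bound member, or the next after dnj-29 for the ER class and after dnj-28 for the other J proteins. Of these 6 peaks only hsp-90 held a marked word.
hsp-90, chrV:14685712-14685812, plus strand: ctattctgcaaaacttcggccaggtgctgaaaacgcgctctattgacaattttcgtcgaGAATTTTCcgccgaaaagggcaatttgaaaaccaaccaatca
cct-7, chrV:1871922-1872022, plus strand: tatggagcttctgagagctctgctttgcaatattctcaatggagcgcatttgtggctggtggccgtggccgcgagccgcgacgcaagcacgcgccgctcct
pfd-4, chrIV:11315026-11315126, plus strand: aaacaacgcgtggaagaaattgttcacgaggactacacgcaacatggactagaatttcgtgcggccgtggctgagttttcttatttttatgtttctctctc
hsp-60, chrIII:1619079-1619179, plus strand: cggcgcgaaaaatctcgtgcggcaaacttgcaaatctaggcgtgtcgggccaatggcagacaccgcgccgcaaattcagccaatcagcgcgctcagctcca
hsp-3, chrX:6092094-6092194, minus strand: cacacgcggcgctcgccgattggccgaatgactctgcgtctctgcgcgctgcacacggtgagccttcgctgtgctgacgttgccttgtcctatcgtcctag
dnj-14, chrX:4711984-4712084, minus strand: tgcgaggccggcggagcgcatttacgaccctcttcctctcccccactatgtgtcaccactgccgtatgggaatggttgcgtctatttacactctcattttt

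The second set has 5 other peaks of cytosolic, CCT and prefoldin members that held a marked word, and it was chosen after the values were seen.
hsp-1, chrIV:17278526-17278626, plus strand: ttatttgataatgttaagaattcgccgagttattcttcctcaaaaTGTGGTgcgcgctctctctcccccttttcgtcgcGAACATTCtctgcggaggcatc
hsp-110, chrIII:8447106-8447206, minus strand: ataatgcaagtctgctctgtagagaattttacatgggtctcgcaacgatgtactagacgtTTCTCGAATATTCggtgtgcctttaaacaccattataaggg
dnj-13, chrII:11545448-11545548, plus strand: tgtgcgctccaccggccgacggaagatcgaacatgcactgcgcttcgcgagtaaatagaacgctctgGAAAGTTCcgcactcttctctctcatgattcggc
cct-5, chrIII:4508478-4508578, minus strand: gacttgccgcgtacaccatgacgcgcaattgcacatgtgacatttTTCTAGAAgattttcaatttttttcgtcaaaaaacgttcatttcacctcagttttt
pfd-5, chrIII:7198992-7199092, minus strand: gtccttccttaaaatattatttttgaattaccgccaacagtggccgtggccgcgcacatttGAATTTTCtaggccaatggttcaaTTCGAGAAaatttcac

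The sequence between the divergent starts of hsp-16.2 and hsp-16.41, genes of the heat-inducible class, is shown as the counterpart. It held heat shock pairs but no IDR summit, and is given on the plus strand.
hsp-16.2/hsp-16.41, chrV:1804958-1805177, plus strand: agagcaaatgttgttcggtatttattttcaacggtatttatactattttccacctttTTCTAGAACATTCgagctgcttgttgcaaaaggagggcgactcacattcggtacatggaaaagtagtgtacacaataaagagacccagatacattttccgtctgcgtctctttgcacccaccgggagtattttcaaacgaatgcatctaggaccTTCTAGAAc

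RNT-1 peaks lay at the starts of 22 of the 65 chaperone genes. A gene was called bound when an IDR summit fell in the window that runs from 1000 bp before an annotated start to 200 bp after it. This share was 33.8% (95% Wilson interval 23.5 to 46.0, counting error only), against 1351 of 19973 genes, 6.76%. A summit can lie in the windows of several genes. When each counted only for its nearest protein-coding start, within 2000 bp in place of the window, 11 members were bound, 16.9% against 6.79% of all genes. Of these 11, 10 were among the 22. In the list called on both replicates without the IDR threshold, 41 members had a summit in the window, 63.1% against 31.5% of all genes. Among the 1931 strongest regions of each replicate, as many as there are IDR peaks, 21 members had a summit in replicate 1, 32.3% against 6.64%. Replicate 2 gave 23 members, 35.4% against 6.64%. With 1 group and no second condition, these shares are descriptions, and no p-value is given.

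In the cytosolic class of HSP70, HSP90, HSP110 and J partners, 5 of 6 were bound, and 5 of 8 CCT subunits were. Prefoldin had 3 of 6, the ER class 3 of 6 and the mitochondrial class 1 of 6. The heat-inducible class had 0 of 7, for which the exact 95% interval reaches up to 41%, and the other small heat shock proteins also had 0 of 7. Over all genes 6.76% were bound, a share that this interval holds. By these counts neither class can be told apart from all genes. The 7 heat-inducible genes hold shared and copied sequence, described below, so they are not 7 separate observations. Of the other J proteins, 5 of 19 were bound. The exact interval of the cytosolic class, 35.9% to 99.6%, overlapped that of the heat-inducible class, and no difference between classes was tested. The counts per class also rest on how shared peaks are assigned. With each peak given to its nearest protein-coding start, the ER class had 3 bound genes and the cytosolic class had 2, dnj-13 and hsp-1. Starts of non-coding RNA genes were not counted, though such starts lay nearer to the summits of dnj-13, at 34 bp, and hsp-1, at 163 bp. By the same rule CCT, prefoldin and the heat-inducible class had 1 bound gene each, with 0 in the mitochondrial class. The heat-inducible gene counted this way was an hsp-16 gene with the summit outside its start window.

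**Figure D1:**
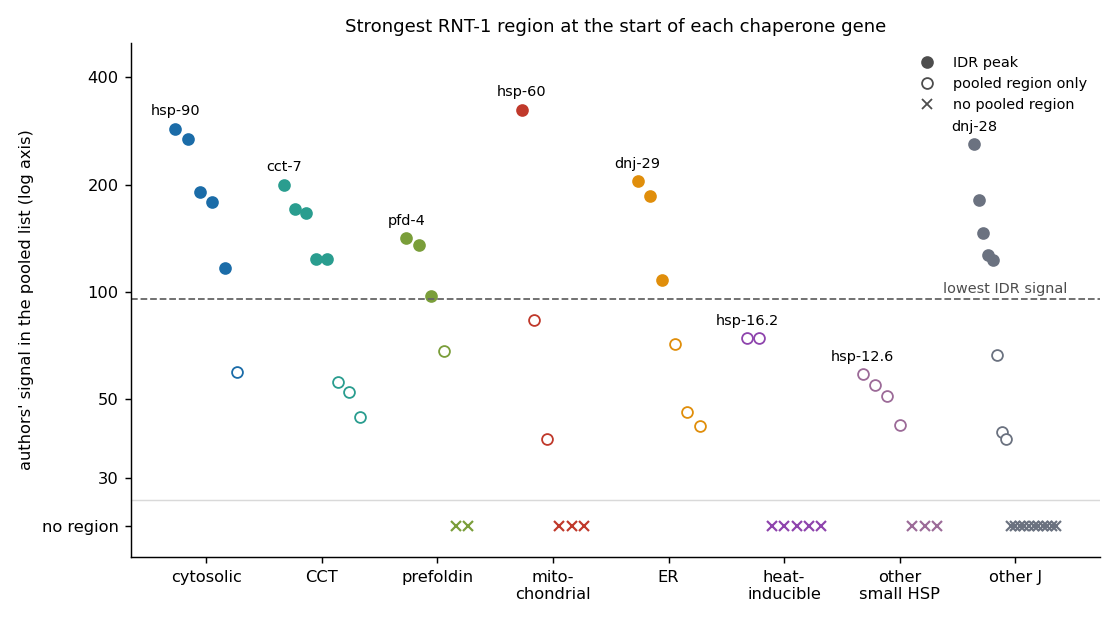
Authors' signal of the strongest pooled region at the start of each of the 65 chaperone genes, on a log axis, by class. Filled points are IDR peaks, open points are pooled regions without one, crosses are genes with no pooled region, and the dashed line is the lowest signal in the IDR list, 95.8. The 14 genes of the heat-inducible and other small heat shock classes all lie below the line or have no region, while 5 of 6 cytosolic members lie above it. Of all protein-coding genes, 6.76% had an IDR summit in the start window.

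The authors' signal is a score with no stated scale, so its size is compared within a list only and ranks are given beside it. Rank 1 is the strongest region of a list. The IDR list holds 1931 peaks with signals of 95.8 to 1809. The 22 bound members spanned 97.4 to 325, with a median signal of 168 and a median rank of 620. All 1351 bound genes had a median signal of 145 and a median rank of 878. The highest of the bound members, hsp-60, stood at rank 80.

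The cytosolic HSP90 gene hsp-90 had the strongest region of its class. Its peak, chrV:14685645-14685877, had a signal of 287 at rank 122 of the IDR list. In replicate 1 the region had 206 at rank 73, and in replicate 2 it had 84.4 at rank 334. The annotation gives hsp-90 more than 1 start, and the summit lay 398 bp upstream of an internal start and 844 bp downstream of the outermost one. With the outermost starts alone hsp-90 would not count as bound.

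The constitutive HSP70 gene hsp-1, chrIV:17278501-17278684, had a signal of 268 at rank 156 in the IDR list. Replicate 1 gave 170 at rank 139 and replicate 2 placed it at rank 193, so hsp-1 stood high in both. Its summit, 383 bp upstream of the start, lay in the window of no other protein-coding gene. It was 1 of 5 bound members of which this is true.

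The partners of HSP-1 followed. The J protein gene dnj-13, a class B J protein, had 190 at rank 436, with 104 at rank 584 in replicate 1 and 92.9 at rank 255 in replicate 2. The exchange factor gene hsp-110 had 178 at rank 523, with 88.2 at rank 855 in replicate 1 and 89.6 at rank 283 in replicate 2. Both ranked higher in replicate 2. The J protein gene dnj-19 was weaker, at 117 and rank 1338, with 63.9 at rank 730 in replicate 2 and 52.5 at rank 2455 in replicate 1, past the strongest 1931 of that replicate. The class A J protein gene dnj-12 was the cytosolic member without an IDR peak. Its pooled region had a signal of 59.5 at rank 4447, and its replicates stood far apart, at rank 5876 in replicate 1 and rank 784 in replicate 2.

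The 8 subunits of CCT, which folds actin and tubulin, all had a pooled region at their starts, against 31.5% of all protein-coding genes. An IDR peak lay at 5 of the 8, against 6.76% of all genes. The strongest was cct-7 with 200 at rank 375, from 117 at rank 425 in replicate 1 and 88.0 at rank 297 in replicate 2. Next came cct-1 with 170 at rank 598, from 91.1 in replicate 1 and 75.5 in replicate 2, and cct-8 with 166 at rank 642, from 106 in replicate 1 and 60.2 in replicate 2. These 3 subunits ranked in the top 1931 of both replicates.

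The remaining bound subunits were weaker. The gene cct-5 had 124 at rank 1186, with rank 1120 in replicate 1 and rank 1869 in replicate 2. The gene cct-2 had 124 at rank 1194, with rank 978 in replicate 1 and rank 2034 in replicate 2, just past the strongest 1931. The unbound subunits had pooled signals of 56.0 for cct-6, 52.5 for cct-3 and 44.5 for cct-4, at ranks 5016, 5694 and 8241. The products of these genes assemble into 1 complex, and their regions in this list spanned ranks 375 to 8241.

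Prefoldin hands new chains to CCT, and 3 of its 6 subunit genes were bound. The gene pfd-4 had 142 at rank 907, with rank 747 in replicate 1 and rank 1316 in replicate 2. The gene pfd-5 had 135 at rank 1009, with rank 1453 in replicate 1 and rank 748 in replicate 2. The gene pfd-1 had 97.4 at rank 1869, the lowest of all bound members, with rank 1841 in replicate 1 and rank 1700 in replicate 2. Of the unbound subunits, pfd-3 had a pooled signal of 68.3 at rank 3482, pfd-6 had a region in replicate 2 alone at rank 11266, and pfd-2 had none in any list.

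In the mitochondrial class, hsp-60 alone was bound, and it carried the highest signal of all 65 members. The gene encodes the mitochondrial chaperonin. Its peak, chrIII:1619031-1619239, had a signal of 325 at rank 80, from 174 at rank 128 in replicate 1 and 148 at rank 38 in replicate 2. The summit lay 613 bp upstream of the hsp-60 start and 200 bp upstream of the start of the divergent gene Y22D7AL.10, whose RefSeq product is a mitochondrial heat shock protein of 10 kDa, the co-chaperonin. The starts of the pair lie 813 bp apart, so the position of this summit cannot assign it to 1 of them, and it was nearer to Y22D7AL.10.

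The mitochondrial HSP70 gene hsp-6 was the strongest member without an IDR peak. Its pooled region had 83.5 at rank 2479, with 41.2 at rank 4023 in replicate 1 and 41.4 at rank 1752 in replicate 2, so it was among the strongest 1931 in replicate 2 only. The J protein gene dnj-10 had a pooled signal of 38.7 at rank 11281. No list held a region at hsp-75, dnj-15 or dnj-21.

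All 6 genes of the ER class had a pooled region, against 31.5% of all protein-coding genes, and 3 had an IDR peak, against 6.76%. The gene dnj-29, which encodes the SEC63 J protein of the translocon, had 204 at rank 344, with 142 at rank 251 in replicate 1 and 64.6 at rank 704 in replicate 2. The ER HSP70 gene hsp-3 had 185 at rank 475, with 78.4 at rank 1146 in replicate 1 and 107 at rank 145 in replicate 2. Its summit lay 20 bp upstream of the start, the nearest of all bound members, and a second IDR summit stood 628 bp upstream with a signal of 103 at rank 1673. The ER J protein gene dnj-20 had 108 at rank 1542, with rank 2281 in replicate 1 and rank 1176 in replicate 2. Its summit was 303 bp upstream of an internal start and 4703 bp downstream of the outermost start.

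The second ER HSP70 gene, hsp-4, is known as the one that the unfolded protein response induces. It had no IDR peak. Its pooled signal was 71.4 at rank 3232, with 61.7 at rank 1774 in replicate 1 and 24.2 at rank 4548 in replicate 2, so only replicate 1 placed it among its strongest 1931. The paralog hsp-3 had the higher signal in the pooled list and in each replicate, by less in replicate 1. The other unbound ER genes, dnj-7 and dnj-27, had pooled signals of 46.1 and 41.9.

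The heat-inducible class had its only regions at the divergent pair hsp-16.2 and hsp-16.41, small heat shock genes that share 1 region, chrV:1804926-1805361. It had a pooled signal of 74.2 at rank 3024, with 54.9 at rank 2245 in replicate 1 and 28.2 at rank 3434 in replicate 2. The region is the same for both genes and is 1 observation. No list held a region at hsp-70, the inducible HSP70 gene.

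No list held a summit in the start windows of hsp-16.1, hsp-16.11, hsp-16.48 and hsp-16.49 either, but these genes need care. They lie on chromosome V as an inverted repeat whose copies share 1881 identical bases, so reads there could map to both copies, and how the authors treated such reads is not given in the sources used here. An IDR peak lay between the copies, chrV:9088740-9089175, with a signal of 104 at rank 1646, rank 1457 in replicate 1 and rank 2234 in replicate 2. Its summit was 198 bp from the nearest identical base, in the stretch between the 3′ ends of hsp-16.48 and hsp-16.49, and 808 to 1176 bp from the 4 starts. A wider window, 2000 bp upstream to 500 bp downstream, counts it for 2 genes of the class.

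The other small heat shock genes had no IDR peak. Pooled regions were found at 4 of 7, 57.1% against 31.5% of all genes. Their signals were 58.8 for hsp-12.6, 54.7 for hsp-25, 50.9 for hsp-12.2 and 42.2 for hsp-12.1. The median of these, 52.8, was above the 43.5 of all genes with a pooled region and no IDR peak. In replicate 2 hsp-12.6 had rank 14424, against rank 3054 in replicate 1, and hsp-25 stood apart in the same way at ranks 13983 and 3499. No list held a region at hsp-12.3, hsp-17 or hsp-43.

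Among the other 19 J protein genes, dnj-28 had the strongest region, with 260 at rank 168. Its replicates were close in rank, with 162 at rank 169 in replicate 1 and 96.5 at rank 217 in replicate 2. The gene dnj-14, whose human counterpart is the synaptic cysteine string protein, had 181 at rank 508, and dnj-11, whose RefSeq product is DnaJ homolog subfamily C member 2, a ribosome-associated J protein, had 146 at rank 860. The genes dnj-5 and dnj-9 had 127 and 123. All 5 were among the 1931 strongest regions of both replicates. Of the 14 unbound genes, dnj-22 came nearest with a pooled signal of 66.7 at rank 3636, and 8 had no region in any list.

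For members with a region in both replicates the signals were correlated, but the ranks of some stood far apart. At dnj-12 the ranks were 5876 in replicate 1 and 784 in replicate 2, and at hsp-25 they were 3499 and 13983. Of the 22 bound members, 19 were among the strongest 1931 regions of both replicates, and dnj-19, cct-2 and dnj-20 were so in 1 replicate. Of the unbound members, dnj-12, hsp-6 and hsp-4 were so in 1 replicate and none in both. The IDR list is itself selected for agreement between these replicates. These counts partly follow from that selection and are not separate evidence of agreement. For the 40 members seen in both, the replicate signals correlated with a Spearman rho of 0.803 and, as log2 signals, a Pearson r of 0.799. For the 22 bound members these were 0.579 and 0.612. They are correlations across genes, which share the library, and some share a region. Of the bound members, 10 ranked higher in replicate 1 and 12 in replicate 2.

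**Figure D2:**
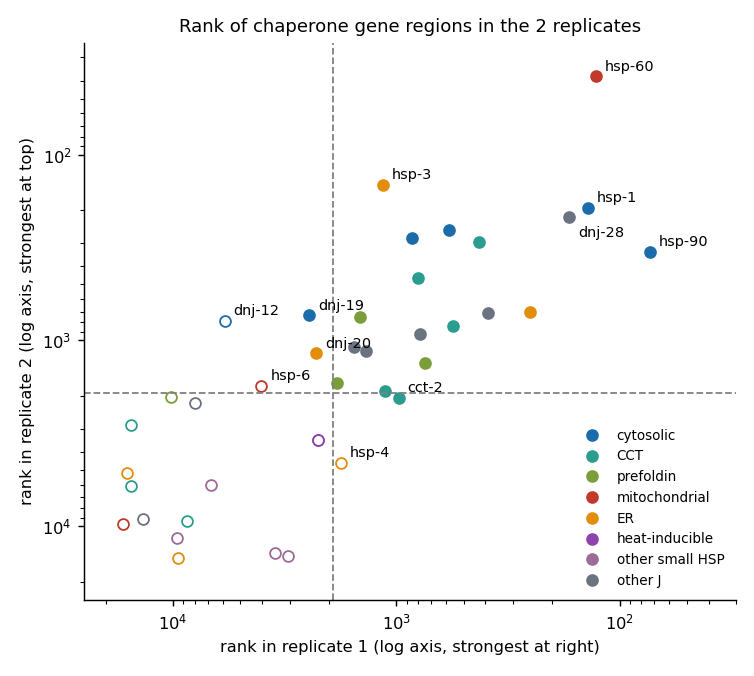
Rank of the strongest region at each chaperone gene in replicate 1 and in replicate 2, both on log axes with the strongest regions at the upper right, for the 40 members with a region in both. Filled points are bound members, colours are classes, and dashed lines are at rank 1931. Nearly all filled points, 19 of 22, lie inside both lines, and hsp-60 stands highest in replicate 2. The filled points come from a list selected for agreement between the replicates.

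The threshold ran between close values. The bound members nearest to it were dnj-20 and pfd-1, with 108 and 97.4. The nearest below were hsp-6 with 83.5, the shared hsp-16.2 and hsp-16.41 region with 74.2, hsp-4 with 71.4 and pfd-3 with 68.3. The lowest signal in the IDR list was 95.8. The 19 members with a pooled region and no IDR peak had a median signal of 54.7, against 43.5 for the 4933 genes of the same kind. At 20 members no list held a region in the start window.

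Every nuclear chromosome held bound members. Chromosome II had 6 of its 12 members bound, against 219 of all its 3449 genes, and IV had 5 of 11, against 203 of 3281. The count was 4 of 12 on III, against 257 of 2640, and 3 of 14 on V, against 203 of 4994. It was 2 of 11 on I, against 257 of 2878, and 2 of 5 on X, against 212 of 2731. With 5 to 14 members on a chromosome, no difference between chromosomes was tested.

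Summits lay in the near upstream region. The median summit position was 278 bp upstream of the counted start for the 22 members, against 257 bp for all 1351 bound genes. Of the members, 20 of 22, 90.9%, had the summit within 500 bp upstream, against 973 of 1351, 72.0%. The exceptions were dnj-5 at 749 bp and hsp-60 at 613 bp. In the IDR list 88.0% of summits equal the middle of their region, so a summit position is often only as exact as a region, which has a median width of 436 bp.

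Most of these peaks were shared with a neighbour. A start window of another protein-coding gene held the summit for 17 of 22 bound members, 77.3%, against 644 of 1351 bound genes, 47.7%. For 16 of the 17 a neighbour is divergent, reading away on the other strand, and pfd-5 shares with exos-9 on its own strand. Among the divergent neighbours, rpn-3, a subunit of the 26S proteasome, pairs with hsp-110, and mig-5, a Dishevelled protein of Wnt signalling, pairs with cct-1. The neighbour of dnj-19 is the nuclear receptor gene nhr-47, whose start lay 12 bp from the summit. That of dnj-29 is ndua-2, a subunit of NADH dehydrogenase, with its start 378 bp away. The summits at hsp-1, hsp-3, dnj-20, dnj-5 and dnj-9 lay in the window of no other protein-coding gene.

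The layout of the genes moved with these counts. A divergent protein-coding start within 1000 bp upstream of the outermost start was found for 30 of 65 members, 46.2%, against 3539 of 19973 genes, 17.7%. Of the members with such a start 15 of 30 were bound, 50% (Wilson interval 33.2 to 66.8), against 14.7% of all genes with one. Of the members without one 7 of 35 were bound, 20% (Wilson interval 10.0 to 35.9), against 5.06%. The share of bound genes was higher for the members in both layouts.

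**Figure D3:**
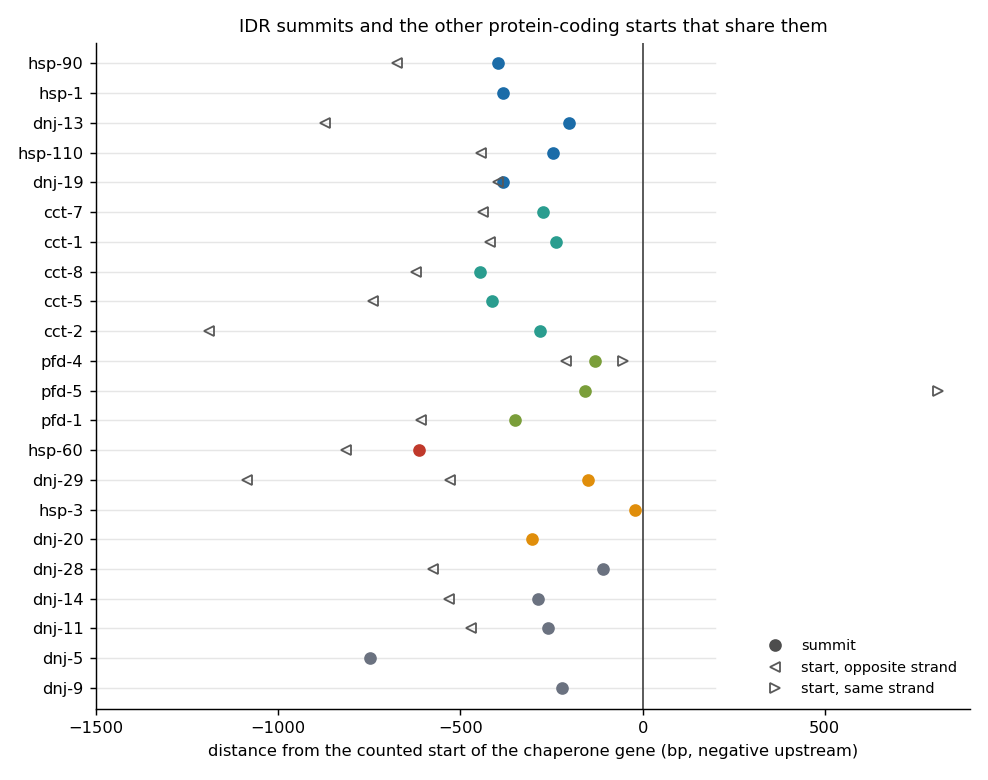
Position of the IDR summit of each of the 22 bound chaperone genes, in bp from the counted start with upstream negative, ordered by class. Circles are summits, and triangles are starts of other protein-coding genes whose windows hold the same summit, pointing the way that gene is read. Most summits, 20 of 22, lie within 500 bp upstream, and many stand between divergent starts.

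Heat shock pairs were more frequent under the chaperone peaks than under other peaks. The words GAANNTTC and TTCNNGAA, 2 heat shock units facing or leaving each other, each read the same on both strands, and they can overlap in a row of 3 units. At least 1 of them lay within 50 bp of the summit at 7 of 22 bound members, 31.8% (exact interval 13.9 to 54.9). Among all 1923 nuclear IDR peaks it was 6.24%, and among the 1021 at protein-coding starts 6.95%. The members were hsp-90, hsp-1, hsp-110, dnj-13, cct-2, cct-5 and pfd-5, all cytosolic, CCT or prefoldin genes, and the pairs stand in capitals in the sequences shown above for 6 of them. A row of 3 units lay at the hsp-110 summit alone, and at 0.416% of all peaks. No test of these shares was made.

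The words lay mostly on the side of the start. With 100 bp on either side of the summit, a width chosen after the data were seen, 14 of 22 members held a pair, 63.6%. The share was 13.3% of all nuclear IDR peaks and 18.2% of the 1351 bound protein-coding genes. These 14 added cct-1, cct-7, cct-8, pfd-4, dnj-19, hsp-60 and dnj-20, so all 5 bound CCT genes were among them. At 12 of the 14 the nearest pair lay on the side of the counted start, 85.7% (exact interval 57.2 to 98.2). For hsp-90 and dnj-20 the counted start was an internal one, and the summit lay inside the gene. Of the 246 bound genes of the whole series with a pair at this distance, the share was 45.5%. Of the 14 members, the exceptions were hsp-60, whose pairs lay upstream, and cct-5, whose pair spans the summit.

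The RUNX core was not more frequent at these peaks. It lay within 50 bp of the summit at 2 of 22 members, hsp-1 and dnj-5, 9.09% (exact interval 1.12 to 29.2), against 14.8% of all nuclear IDR peaks. At hsp-1 the core, TGTGGT, ends at the summit base. Within 100 bp dnj-14 was added. Of other words, GAGAGA lay at 4 of 22 members against 29.7% of all peaks, and ACGCAG at 3 of 22 against 14.2%. Base composition differed little, with a median G and C content of 48.5% within 50 bp of the members' summits and 49.5% around those of all peaks.

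**Figure D4:**
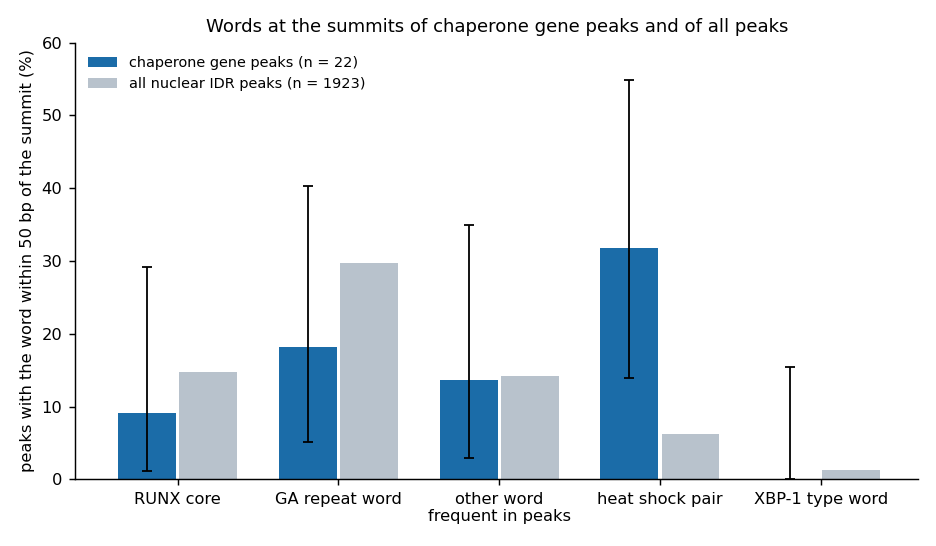
Share of peaks with a word within 50 bp of the summit, for the 22 chaperone gene peaks and all 1923 nuclear IDR peaks, with exact 95% intervals for counting error on the chaperone bars. The bars are the RUNX core, GAGAGA (GA repeat word), ACGCAG (other word), the heat shock pair and TGACGTG (XBP-1 type word). The heat shock pair stands at 31.8% against 6.24%, and the interval of each other word reaches the share of all peaks.

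Upstream of the starts, heat shock pairs were found at bound and at unbound chaperone genes. Within 300 bp upstream of the outermost start it was found at 35 of 65 members, 53.8%, against 32.0% of all protein-coding genes. It was there at 8 of 8 CCT genes and 7 of 7 heat-inducible genes, of which 5 and 0 were bound. The 7 heat-inducible genes are not 7 separate sequences. The genes hsp-16.2 and hsp-16.41 share the sequence between their starts, and the copies of the other hsp-16 genes share 1881 identical bases. Among bound members 14 of 22, 63.6% (exact interval 40.7 to 82.8), had it, and among those without a summit 21 of 43, 48.8% (exact interval 33.3 to 64.5), a difference that was not tested. With 300 bp upstream of any annotated start, a setting chosen after the data were seen, these were 16 of 22 and 22 of 43. Rows of 3 units were at 11 of 65 members, 16.9%, against 1.92% of all genes. These were the 7 heat-inducible genes and hsp-1, hsp-90, hsp-110 and dnj-12 of the cytosolic class. The RUNX core was within 300 bp upstream of 4 of 65 members, 6.15%, against 14.5% of all genes.

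The ER class held another word. TGACGTG, the word that XBP-1 is known to bind in the unfolded protein response, lay within 300 bp upstream of 4 of 6 ER genes, hsp-3, hsp-4, dnj-20 and dnj-29. The share was 9.23% of the 65 members, with dnj-15 and dnj-28 among them, and 2.82% of all genes. Of the 4 ER genes, hsp-4 was unbound. At dnj-20 the word lay upstream of the outermost start, while the summit lay 4703 bp downstream of that start. No summit of the 22 bound members had the word within 50 bp, against 1.35% of all nuclear IDR peaks.

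Co-chaperones, stress regulators and other folding or degradation genes outside the symbol rule had a similar share of bound genes. Their list was written by hand, with earlier results of these data known, so the share describes these genes only. Of 33 such genes, 10 were bound, 30.3% (Wilson interval 17.4 to 47.3), against 6.76% of all protein-coding genes. The highest was cdc-48.1, the AAA ATPase that extracts proteins for degradation, with a signal of 401 at rank 33, rank 34 in replicate 1 and rank 41 in replicate 2. The HSP70 exchange factor gene bag-1 followed with 359 at rank 47, rank 49 in replicate 1 and rank 70 in replicate 2. Both stood above hsp-60, the strongest chaperone.

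Regulators of the stress responses were among them. The heat shock factor gene hsf-1 had 159 at rank 701, and the ER stress factor genes xbp-1 and atf-6 had 188 at rank 451 and 165 at rank 650. The ER folding genes pdi-6, crt-1, cnx-1 and pdi-3 had 179, 156, 153 and 102, and cdc-48.2, a paralog of cdc-48.1, had 161. The pdi-3 summit, 680 bp upstream and shared with ubql-1, and the cdc-48.2 summit, 984 bp upstream and shared with ctns-1, ranked 4133 and 3522 in replicate 2, past its strongest 1931. Of the unbound genes, enpl-1, the ER HSP90 gene, was nearest at 93.8 and rank 1991. The mitochondrial stress factor gene atfs-1 had 90.2, and the HSP90 co-chaperone genes sti-1, daf-41 and cdc-37 had pooled signals of 68.2, 66.2 and 47.3.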

How the data were processed

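RNT-1 ChIP-seq regions of 2 biological replicates were used, as lists in narrowPeak format on ce11. Per the labels, an alignment of control samples was available for the experiment. There is 1 list for each replicate that keeps background regions, 1 called on both together and 1 thresholded by IDR. The authors deposited a signal, here treated as a score of unstated scale, and a summit offset with every region. Which aligner, caller and IDR cut-off the authors used is not given in the sources used here. Read depth is unknown, and intervals on shares, at 95%, cover counting error only. The labels give rnt-1 as the antibody, while the sample notes name GFP. Lists on ce10 were not used here.

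Genes and starts came from Ensembl release 115, and sequences and products from RefSeq, both WBcel235. The second copies hsp-16.11 and hsp-16.49 were named from RefSeq by position. For each gene the strongest region with its summit in the window was taken. Words were searched on both strands in the bases within 50 bp of summits and 300 bp upstream of the outermost start. The sequence at 1 summit is not reported here. Window assignment was tested on simulated data. Python 3.11.15, numpy 2.4.6, scipy 1.17.1 and matplotlib 3.10.9 were used. The members, classes, lists and words were chosen with earlier results of these data known. Named genes were all bound members, the 5 unbound members with the highest pooled signal, all CCT and prefoldin genes, 9 fixed hsp- genes, neighbours that share a summit and bound genes of the other list. Other unbound members named were chosen after their values were seen. Alternatives were other windows, starts, assignment, overlap, thresholds and single replicates.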

Additional observations from a re-analysis of the deposited data

How the results depend on the processing

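With each peak given to its nearest protein-coding start alone, the count of 22 bound members became 11, 16.9%, against 6.79% of all genes. Of these 11, 10 were among the 22. The count was 14, 21.5%, with the 965 strongest IDR peaks, and 41, 63.1%, with the pooled list. It was 20 with a window of 500 bp to 100 bp, 25 with 2000 bp to 500 bp, 20 with the outermost start alone and 25 with any overlap of the region. Leaving out a replicate gave 21 to 23, of which 20 and 21 were bound in the IDR list. The share of all genes was 5.11%, 9.17%, 6.11% and 7.38% under the 4 window, start and overlap settings, in the same order, 3.71% with these 965 peaks and 31.5% with the pooled list. With the nearest start, cytosolic members fell to 2, CCT to 1, prefoldin to 1, mitochondrial to 0 and other J proteins to 3, while heat-inducible genes had 1. With these 965 peaks, CCT had 3, prefoldin 1 and other J proteins 3. With the pooled list, CCT had 8, mitochondrial 3, ER 6, heat-inducible 2, other small heat shock genes 4 and other J proteins 8. The narrow window left 0 mitochondrial genes, and the wide window and the overlap rule each gave 2 heat-inducible genes. Leaving out a replicate gave 1 to 2 mitochondrial genes. Peaks with a RUNX core were 1 with these 965 peaks. Peaks with a heat shock pair were 14 within 100 bp and 4 of 14 with these 965 peaks, 28.6% against 6.47% of all peaks in it, and 6 to 7 without a replicate. The heat shock settings were chosen after the data were seen. With 300 bp upstream of any start, 38 members had the pair in place of 35, and 38.0% of all genes in place of 32.0%.

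No paired analysis was possible because the series has 1 group. Depth is unknown, summits shared by neighbours cannot be assigned to 1 gene, and classes of 6 to 19 genes give wide intervals.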
